A study of Mus musculus with 6 samples.

Results

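Genes of glycolysis and of the hypoxia response were examined in the mouse macrophage line RAW264.7 after 48 h of coculture with TTJ cells and after growth alone. The set was defined by gene symbol, as 36 symbols that matched 37 of the 54532 rows of the count table, because 2 gene IDs carried the symbol Aldoa. It was divided into 19 symbols (20 rows) of glycolytic enzymes and of the transporters at either end of the pathway, and 17 symbols of hypoxia-inducible factor (HIF) subunits, their hydroxylases and other HIF targets. TTJ cells are Tsc2-null cells that came from an angiomyolipoma of a tuberous sclerosis mouse model. Each group had 3 libraries, replicates A, B and C, of RAW264.7 cells labelled WT and recovered by sorting, and no treatment was listed for the cells grown alone. The sort gate is not stated in the labels, and TTJ cells on their own were not analysed here. No label says that replicates were separate cultures, so a p-value covers the scatter of these libraries and no more, and that scatter may be technical.

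Glycolysis splits glucose into pyruvate in the cytosol, and lactate dehydrogenase and a proton-linked transporter then convert pyruvate to lactate and carry it out of the cell. HIF is a dimer of an alpha and a beta subunit, and prolyl hydroxylases use oxygen to mark the alpha subunit for destruction, so that HIF accumulates and binds its targets when oxygen is low. In macrophages inflammatory stimuli also raise HIF1A and glycolytic genes, and the alpha subunit is controlled mainly at the protein level, which was not measured.

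Total counts per library ran from 14329487 to 17358280. Levels are given in CPM, which are counts scaled to a common library size with the TMM method, and each group has n = 3. All 12 macrophage marker genes examined were detected. Their summed level was 13404 to 13742 CPM in cocultured libraries and 12851 to 12954 CPM in lone ones. Lyz2 had the largest part of that sum, at 7266 CPM in coculture and 6768 CPM alone. In the test described below, 5 of them were higher in coculture (41.7%) and 4 lower (33.3%), against 21.7% and 15.2% of all genes tested. Fcgr1 rose 2.25-fold and Itgam 1.86-fold, while Tyrobp fell 1.23-fold and Spi1 1.17-fold. Of 15 renal and simple epithelial markers, 13 had no count in any lone library and 11 had at least 1 CPM on average in coculture. Their summed level was 313.9 to 360.8 CPM in coculture and 0 to 0.0600 CPM alone, while Epcam and Lhx1 were at 0 counts in all 6 libraries. The summed level of 15 mesenchymal and smooth muscle markers was 76.8 to 84.6 CPM in coculture and 1.90 to 1.98 CPM alone, with Col3a1 and Thy1 at 0 counts throughout. These values stand beside every change below, and their part in it was not tested. In such bulk libraries, fewer cells of a type and less RNA per cell cannot be told apart.

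Coculture replicate C stood apart for the genes described here. It had the highest CPM of the cocultured libraries in 19 of the 20 glycolytic rows, whereas it was the highest in 33.8% of all genes tested, and it was the highest of all 6 libraries in 16 of the 20 (17.2% of all genes tested). Its macrophage marker sum of 13404 CPM and its mesenchymal sum of 76.8 CPM were the lowest of the cocultured libraries. Replicates A and B had 13742 and 13556 CPM for macrophage markers and 79.2 and 84.6 CPM for mesenchymal ones. The epithelial sum of replicate C, 334 CPM, lay between those of A and B (313.9 and 360.8 CPM). Its total of 16976782 counts was the largest of that group.

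The sequences before the starts of 7 of the genes show how the short core of the HIF binding site was distributed over members that rose and members that were not called. The letters ACGTG and GCGTG were searched on both strands (CACGT and CACGC on the printed strand) in the 250 bases before the most upstream RefSeq start of each gene, and matches that overlapped, as in the palindrome CACGTG that is also the site of MYC and BHLHE40, were counted as 1. Promoters were found for 32 of the 36 symbols, with Ero1l under its current symbol Ero1a, and 4 had no entry (Epas1, Bnip3l, Ndrg1 and Bhlhe40). Sequences are RefSeq's, on GRCm38.p6, with the matches in capitals. Those of Slc2a1 (chr4:119108495-119108740, plus strand), Pgam1 (chr19:41911621-41911870, plus strand), P4ha1 (chr10:59323046-59323295, plus strand), Bnip3 (chr7:138909507-138909756, minus strand) and Adm (chr7:110627407-110627656, plus strand) belong to genes that rose and hold a match, that of Hk1 (chr10:62379909-62380158, minus strand) to a gene that rose without a match, and that of Pgk1 (chrX:106186850-106187099, plus strand) to a gene that was not called and holds matches.
Slc2a1: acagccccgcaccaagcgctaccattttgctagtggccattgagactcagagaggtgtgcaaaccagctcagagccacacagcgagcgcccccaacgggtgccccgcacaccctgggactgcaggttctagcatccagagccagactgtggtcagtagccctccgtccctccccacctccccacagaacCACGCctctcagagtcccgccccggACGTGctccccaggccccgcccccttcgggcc
Pgam1: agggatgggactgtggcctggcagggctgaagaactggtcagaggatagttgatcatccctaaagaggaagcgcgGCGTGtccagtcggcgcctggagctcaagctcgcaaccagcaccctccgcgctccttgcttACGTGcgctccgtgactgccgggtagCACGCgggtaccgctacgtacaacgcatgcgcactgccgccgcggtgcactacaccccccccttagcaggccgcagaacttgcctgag
P4ha1: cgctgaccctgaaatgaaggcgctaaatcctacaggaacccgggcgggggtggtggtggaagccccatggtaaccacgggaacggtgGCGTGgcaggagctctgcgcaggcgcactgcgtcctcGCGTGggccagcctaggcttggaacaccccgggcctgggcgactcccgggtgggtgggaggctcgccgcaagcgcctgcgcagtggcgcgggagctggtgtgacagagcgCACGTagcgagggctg
Bnip3: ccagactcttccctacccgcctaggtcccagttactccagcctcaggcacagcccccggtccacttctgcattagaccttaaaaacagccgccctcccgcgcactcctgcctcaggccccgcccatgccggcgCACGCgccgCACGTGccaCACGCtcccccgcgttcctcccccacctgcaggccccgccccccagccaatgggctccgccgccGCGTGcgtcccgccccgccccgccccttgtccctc
Adm: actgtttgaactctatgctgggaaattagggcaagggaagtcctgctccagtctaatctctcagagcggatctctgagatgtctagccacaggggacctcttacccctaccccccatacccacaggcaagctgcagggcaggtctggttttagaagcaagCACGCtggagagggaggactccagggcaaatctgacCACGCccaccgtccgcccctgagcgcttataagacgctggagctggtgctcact
Hk1: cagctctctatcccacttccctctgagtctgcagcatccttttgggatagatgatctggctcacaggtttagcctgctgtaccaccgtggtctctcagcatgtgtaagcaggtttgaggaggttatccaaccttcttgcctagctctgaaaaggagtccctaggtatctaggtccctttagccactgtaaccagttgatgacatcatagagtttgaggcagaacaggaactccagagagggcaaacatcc
Pgk1: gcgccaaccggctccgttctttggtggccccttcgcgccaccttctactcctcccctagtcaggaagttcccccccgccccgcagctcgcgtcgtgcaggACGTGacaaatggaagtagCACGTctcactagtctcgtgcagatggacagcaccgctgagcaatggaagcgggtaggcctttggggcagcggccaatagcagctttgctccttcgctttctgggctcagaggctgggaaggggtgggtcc

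At least 1 match was present in 26 of the 32 members' windows (81.2%), against 38.6% of the 27026 windows of all genes in the table. At least 2 separate matches were present in 16 of the members' windows (50%) and in 13.6% of all. The members' windows were also richer in the dinucleotide CG, which the searched letters contain, with a median of 15 per window against 6 over all genes. Among glycolytic members a match was present for 7 of 10 that rose, for the 1 that fell, Aldoc, and for 6 of 8 that were not called. Among HIF-related members it was present for 9 of 9 that rose, for the 1 that fell, Kdm3a, and for 2 of 3 that were not called. Bnip3 had the most separate matches, 4, and Mxi1, Gpi1, Pkm, Tpi1, Aldoa and Hk1 had none in this window. Some windows lay within the gene as annotated for the counts, which can start further upstream than RefSeq. All 250 bases did so for Aldoa, Ldha, Slc16a3, Pfkl, Gapdh, Hif1a, P4ha2 and Ankrd37. The number was 208 for Pkm, 199 for Ero1l, 148 for Pfkfb3, 138 for Tpi1, 124 for Pfkfb4 and 105 for Aldoc. It was at most 73 for Kdm3a, Egln1, Car9, Slc2a1, Bnip3 and Pfkp. A match is a description of these letters and shows no binding, and other annotated starts of a gene were not searched.

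The comparison of cocultured with lone cells addresses the effect of Tsc2-null cells on macrophage polarization, and here it was read along the glycolytic pathway. Of the 20 glycolytic rows, all of which passed the filter on low counts, 10 rose, 1 fell and 9 did not pass the test (edgeR quasi-likelihood test with Benjamini-Hochberg adjusted p under 0.05 over 12972 genes). Over all genes tested, 21.7% rose and 15.2% fell, and among genes with a mean of at least 10 CPM alone the shares were 16.5% and 21.1%. The members that rose lay at the entry of glucose, at 1 of the hexokinases, at phosphofructokinase (Pfkl) and its regulator Pfkfb3, at aldolase (Aldoa), at Tpi1, Pgam1 and Eno1 of the lower part of the pathway, and at the making and export of lactate. Gapdh, Pgk1 and Pkm of the lower part were not called. The changes were small. The median log2 difference of the 20 rows was 0.13, against 0.0029 over all genes tested, and the largest rise was 1.41-fold.

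Slc2a1 (chromosome 4, 119108711 to 119137983 on mm10), which encodes the main glucose importer of most cells, had the largest rise. It was at 242, 247 and 289 CPM in cocultured libraries A, B and C and at 180.1, 187 and 185 CPM in lone libraries A, B and C. All 3 cocultured libraries lay above all 3 lone ones, and the fold was 1.41 (log2 0.50, SE 0.0541, adjusted p = 3.54e-08). Hk1, a hexokinase that traps glucose by phosphorylation, was at 298, 297 and 350.2 CPM in coculture and 254, 237 and 248 CPM alone, a rise of 1.28-fold without overlap (log2 0.36, SE 0.05297, adjusted p = 5.52e-06). Hk2, the hexokinase usually counted among HIF targets, was at 190.4, 188 and 215 CPM in coculture and 194, 181 and 177 CPM alone. The Hk2 groups overlapped and the difference did not pass (log2 0.10, SE 0.0521, adjusted p = 0.128), although it did without alone replicate A (adjusted p = 0.0373).

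At the next steps Pfkl and Pfkfb3 rose, and Gpi1, Pfkp, Pfkm and Pfkfb4 were not called. Gpi1, the isomerase of glucose phosphate, averaged 869 ± 55.5 CPM in coculture and 853 ± 20.0 CPM alone (SD), with a log2 difference of 0.03 and an SE of 0.0410. Of the phosphofructokinase genes, which encode the enzyme of the committed step, Pfkl rose 1.13-fold, at 342 ± 28.3 CPM in coculture and 303 ± 10.9 CPM alone (log2 0.18, SE 0.0497, adjusted p = 0.00618). The Pfkl call was lost without coculture replicate C, where the log2 difference was 0.11 (adjusted p = 0.0690). Pfkp, at 379.97 ± 38.2 CPM in coculture and 366 ± 16.0 CPM alone, and Pfkm, at 25.4 ± 2.18 CPM in coculture and 25.0 ± 3.17 CPM alone, did not pass (log2 0.05 and 0.03). Pfkfb3 makes the allosteric activator of phosphofructokinase. It was at 41.9, 43.3 and 55.4 CPM in coculture and 34.7, 32.3 and 38.1 CPM alone, above every lone library and 1.34-fold higher (log2 0.42, SE 0.0902, adjusted p = 0.000520). Its relative Pfkfb4 did not pass, with 27.8 ± 1.85 CPM in coculture and 26.1 ± 0.265 CPM alone.

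**Figure D1:**
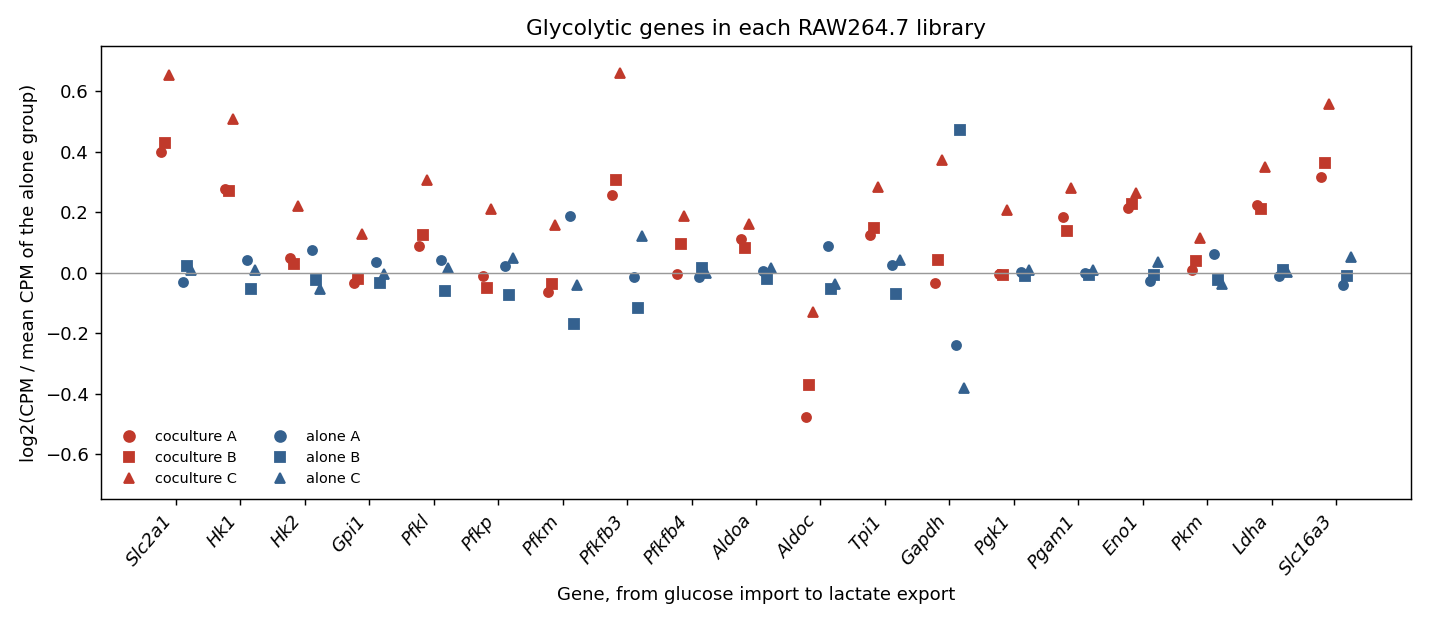
Level of each glycolytic gene in each library, as log2 of its CPM over the mean CPM of the lone group, in pathway order. Red symbols at the left of each gene are cocultured libraries and blue symbols at the right are lone ones, the shape gives the replicate letter, and for Aldoa the row with more counts is shown. Slc2a1, Hk1, Ldha and Slc16a3 are separated between the groups, Aldoc lies lower in coculture, and coculture replicate C (red triangle) is the highest cocultured library for every gene plotted.

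The aldolase genes moved in opposite directions. Aldoa, the ubiquitous form, rose 1.09-fold at its main gene ID, ENSMUSG00000030695, to 2064 ± 58.3 CPM in coculture, against 1900.3 ± 25.3 CPM alone (log2 0.12, SE 0.0323, adjusted p = 0.00483). The other ID with this symbol, ENSMUSG00000114515, lies upstream on the same strand, held 91 counts in coculture and 115 alone, and was not called. Aldoc, the form typical of brain, was the only glycolytic member that fell. It was at 52.2, 56.2 and 66.4 CPM in coculture and 77.2, 69.9 and 70.7 CPM alone, below every lone library and 1.24-fold lower (log2 -0.31, SE 0.0720, adjusted p = 0.00111). In deposited FPKM, which are scaled to gene length, Aldoa made up 97.55% ± 0.247 of the aldolase level in coculture and 96.7% ± 0.164 alone.

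Below aldolase, Tpi1, the triose phosphate isomerase, rose 1.14-fold to 1110.2 ± 67.4 CPM in coculture, against 975 ± 40.1 CPM alone, and Pgam1, the phosphoglycerate mutase, rose 1.15-fold. Pgam1 was at 945, 915 and 1009.6 CPM in coculture and 831.9, 827 and 837 CPM alone, with no overlap (log2 0.20, SE 0.0380, adjusted p = 0.000123). Eno1, the enolase of most tissues, was at 2299.7, 2317 and 2379.7 CPM in coculture and 1943, 1969 and 2031 CPM alone, 1.18-fold higher (log2 0.24, SE 0.0318, adjusted p = 1.30e-06). The enzymes that make ATP were not called. Pgk1, phosphoglycerate kinase, was at 1521, 1518 and 1761 CPM in coculture and 1529, 1514 and 1536 CPM alone, so that only coculture replicate C lay outside the lone range (log2 0.07, adjusted p = 0.231). Pkm, pyruvate kinase, was at 6429 ± 249 CPM in coculture and 6189 ± 235 CPM alone (log2 0.05, adjusted p = 0.196), and it passed only when alone replicate A was left out (adjusted p = 0.0267).

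Ldha, which reduces pyruvate to lactate (chromosome 7, 46841475 to 46855627), was at 2822, 2798 and 3081 CPM in coculture and 2399, 2430 and 2418 CPM alone. Its lone libraries differed by little and every cocultured library lay above them, for a rise of 1.2-fold (log2 0.26, SE 0.0347, adjusted p = 8.69e-07). Slc16a3 encodes the monocarboxylate transporter that exports lactate from glycolytic cells. It was at 446, 460.03 and 527 CPM in coculture and 348, 355 and 371 CPM alone, without overlap and 1.33-fold higher (log2 0.42, SE 0.04995, adjusted p = 1.95e-07). Summed over the 20 rows, glycolytic transcripts came to 19805, 19908 and 21594 CPM in coculture and 18798, 18260 and 18483 CPM alone, or 2.04% of counts in coculture and 1.85% alone. Without coculture replicate C, 9 glycolytic members rose and 1 fell, and without both replicate C libraries the counts were again 9 and 1. The HIF-related members gave 9 and 1 in both cases. Of all genes tested, 2622 of 13133 rose and 1557 fell without coculture replicate C. Without both replicate C libraries, 2497 of 12936 rose and 1526 fell.

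Levels were compared between genes in the deposited FPKM, which divide counts by the length listed for each gene, so a ranking depends on that length. Pkm was the highest member, at 1283 ± 49.5 FPKM in coculture and 1235 ± 47.7 FPKM alone, and Ldha followed at 875 ± 46.9 FPKM in coculture and 728 ± 3.90 FPKM alone. Pgk1 and Aldoa, at 712 ± 61.6 and 708 ± 19.4 FPKM in coculture and 679 ± 5.68 and 651 ± 9.32 FPKM alone, were close to each other. Gapdh, the glyceraldehyde phosphate dehydrogenase, was listed at only 10.1 ± 1.56 FPKM in coculture and 9.17 ± 3.08 FPKM alone. Its counts were 530, 613 and 837 in coculture and 468, 879 and 506 alone, and the groups overlapped widely. Gapdh has many near-identical pseudogenes in the mouse genome, whose part in the low count was not tested, so its level and its log2 difference of 0.14 (adjusted p = 0.476) are uncertain. The difference passed without alone replicate B (log2 0.45, adjusted p = 0.00107) and turned to -0.03 without alone replicate C.

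Within enzyme families the shares of FPKM differed by a few percentage points between the groups. Hk1 made up 33.15% ± 0.939 of the FPKM of Hk1, Hk2 and Hk3 in coculture and 29.5% ± 0.674 alone. Hk2 made up 29.75% ± 0.341 in coculture and 31.5% ± 0.702 alone. The share of Pfkl among phosphofructokinases was 58.8% ± 0.620 in coculture and 56.6% ± 0.484 alone, that of Pfkp 32.5% ± 0.667 in coculture and 34.1% ± 0.620 alone, and that of Pfkm 8.70% ± 0.0482 in coculture and 9.30% ± 0.833 alone. The groups did not overlap for Hk1, Hk2, Pfkl and Pfkp and overlapped for Pfkm. Which gene has the larger share depends on the listed lengths. Pfkp, listed at 13401 bases, was at 366 CPM alone, above Pfkl at 303 CPM, which is listed at 6675 bases. With 3 libraries a group, an exact two-sided permutation test cannot go below p = 0.1, so no share was tested.

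**Figure D2:**
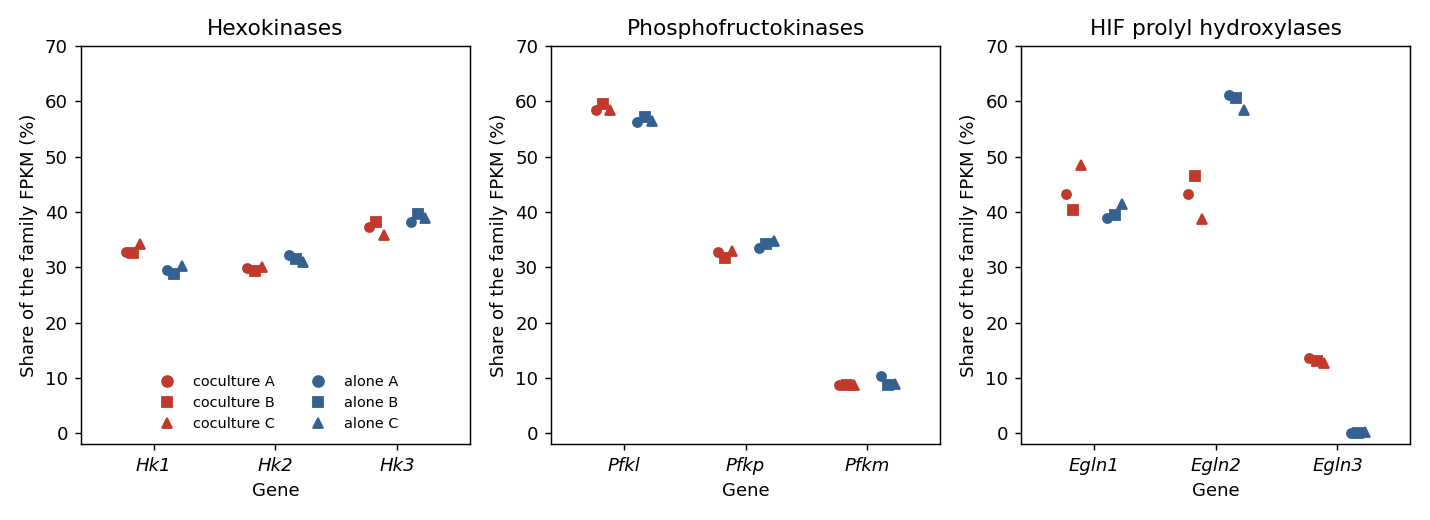
Share of each gene in the summed FPKM of its family, in percent, for hexokinases, phosphofructokinases and HIF prolyl hydroxylases. Red symbols at the left of each gene are cocultured libraries, blue symbols at the right are lone ones, and the shape gives the replicate letter. Hk1 and Pfkl take a somewhat larger share in coculture, and Egln3 takes 12.7% to 13.5% in coculture and at most 0.235% alone.

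Of the 17 HIF-related members, all of which passed the filter, 10 rose, 1 fell and 6 did not pass the test (58.8% and 5.88%, against 21.7% and 15.2% of all genes tested). Egln3 and P4ha2 passed the filter only through coculture. When genes were tested only with a lone mean of at least 1 CPM, Egln3 and P4ha2 were left untested. With that filter 8 HIF-related members rose and 1 fell, while of all 11452 genes tested 2021 rose and 1644 fell. Egln3, P4ha2 and Adm, which had at most 1.31 CPM on average alone, contributed the largest rises. The 11 members that averaged 10 CPM or more in lone cells had 6 rises and 1 fall (54.5% and 9.09%), against 16.5% and 21.1% of all genes tested at that level. Their median log2 difference was 0.27, against -0.03 over those genes. In CPM, 10 members lay entirely above the lone group and 1 entirely below it, while 26.1% and 21% of all genes tested did so.

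Hif1a (chromosome 12, 73901375 to 73947530), the alpha subunit that most cells use, rose itself. It was at 235, 222 and 216 CPM in coculture and 129.9, 143 and 145 CPM alone. The lowest cocultured library was well above the highest lone one, and the fold was 1.61 (log2 0.69, SE 0.05003, adjusted p = 2.40e-11). Unlike most glycolytic members, Hif1a was lowest in replicate C among cocultured libraries. Epas1, the alternative alpha subunit, was low, at 2.38, 2.68 and 2.29 CPM in coculture and 1.44, 2.10 and 1.56 CPM alone. Every cocultured library of Epas1 lay above the lone ones, yet with 115 counts in coculture and 83 alone the difference did not pass (log2 0.52, SE 0.278, adjusted p = 0.151). Hif1a accounted for 98.8% ± 0.110 of the summed FPKM of both subunits in coculture and 98.7% ± 0.233 alone.

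Both hydroxylase members that restrain HIF rose. Egln1, the principal oxygen sensor, was at 59.1, 51.8 and 73.9 CPM in coculture and 39.8, 43.1 and 41.1 CPM alone, 1.49-fold higher without overlap (log2 0.58, SE 0.0894, adjusted p = 9.64e-06). Egln3, a hydroxylase strongly induced by HIF in many cells, had 196, 195 and 244 counts in coculture and 0, 0 and 3 counts alone. That made 13.7, 12.4 and 14.3 CPM in coculture and 0, 0 and 0.173 CPM alone, which is 219 times as much (exact 95% interval 74.6 to 1064, from counting error alone). Egln3 cleared the low-count filter only by its cocultured libraries, and its fitted log2 difference of 7.60 became 10.72 without alone replicate C, which held all of its lone counts. Among the prolyl hydroxylase genes in FPKM, Egln3 made up 13.1% ± 0.408 in coculture and 0.0783% ± 0.136 alone, and Egln2, which was not called, 42.85% ± 3.94 in coculture and 60.03% ± 1.42 alone.

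P4ha1 and P4ha2 encode catalytic subunits of the collagen prolyl hydroxylase. P4ha1 rose 1.2-fold, to 255 ± 13.7 CPM in coculture, against 212 ± 8.51 CPM alone (log2 0.27, SE 0.0473, adjusted p = 6.35e-05). P4ha2 was at 12.2, 15.4 and 13.3 CPM in coculture and 0.481, 0.180 and 0.692 CPM alone, 29.6-fold higher, with 642 counts in coculture and 22 alone. It entered the test only because its cocultured libraries cleared the low-count filter, so no p is given for it. Adm, which encodes the vasodilator peptide adrenomedullin, was at 14.6, 11.4 and 12.2 CPM in coculture and 1.17, 0.959 and 1.79 CPM alone, 9.63-fold higher (log2 3.27, SE 0.207, adjusted p = 1.46e-12). Egln3, P4ha2 and Adm were thus the members closest to absent in lone cells, and they changed between the groups together with the epithelial marker sum of 313.9 to 360.8 CPM in coculture and 0 to 0.0600 CPM alone. The part of the source of those markers in the rises of Egln3, P4ha2 and Adm was not tested.

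**Figure D3:**
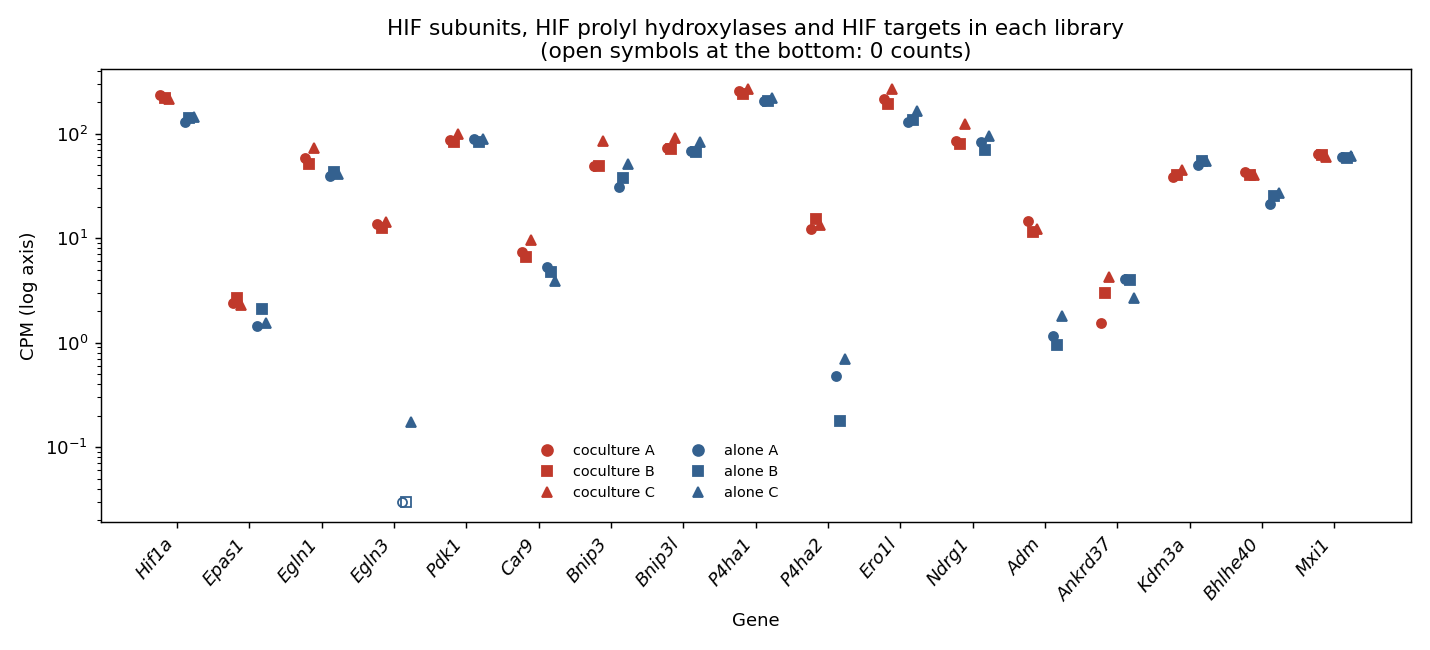
CPM of each HIF-related gene in each library, on a log axis. Red symbols at the left of each gene are cocultured libraries, blue symbols at the right are lone ones, the shape gives the replicate letter, and open symbols at the bottom edge mark 0 counts. Egln3, P4ha2 and Adm lie at 11.4 to 15.4 CPM in coculture and at most 1.79 CPM alone, whereas Hif1a, Egln1, Ero1l and Bhlhe40 differ by less between the groups and lie at higher levels.

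Among targets with roles in the endoplasmic reticulum, in acid balance and in transcription, Ero1l, Car9 and Bhlhe40 rose and Kdm3a fell. Ero1l, the oxidase that drives disulfide formation, was at 213, 195 and 267 CPM in coculture and 129, 137 and 165 CPM alone, 1.57-fold higher without overlap (log2 0.65, SE 0.0835, adjusted p = 5.95e-07). Bhlhe40, a transcriptional repressor, was at 42.9, 40.7 and 40.6 CPM in coculture and 21.5, 25.3 and 26.9 CPM alone, 1.68-fold higher (log2 0.75, SE 0.0830, adjusted p = 5.42e-08). Car9, a membrane carbonic anhydrase widely used as a hypoxia marker, was at 7.86 ± 1.55 CPM in coculture and 4.63 ± 0.723 CPM alone, 1.71-fold higher (log2 0.77, adjusted p = 0.00134). The Car9 call was lost without both replicate C libraries (log2 0.48, adjusted p = 0.0836). Kdm3a, a histone demethylase, fell to 41.4 ± 3.61 CPM in coculture, against 53.4 ± 2.40 CPM alone, 1.29-fold lower and without overlap (log2 -0.37, SE 0.0710, adjusted p = 0.000183).

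Bnip3, a mitochondrial receptor for mitophagy, was at 49.0, 49.0 and 86.2 CPM in coculture and 31.2, 38.0 and 51.9 CPM alone. Its groups overlapped, replicate C was the highest library of each group, and the rise was 1.52-fold (log2 0.61, SE 0.158, adjusted p = 0.00349). Without coculture replicate C the log2 difference was 0.28 and the call was lost (adjusted p = 0.0967). The Bnip3 call was also lost in the DESeq2 Wald test (adjusted p = 0.181). Ndrg1, a stress-responsive gene, was also highest in replicate C of each group, at 85.8, 79.9 and 126 CPM in coculture and 83.4, 69.6 and 95.6 CPM alone, and was not called (log2 0.23, adjusted p = 0.112). It was called without alone replicate C (log2 0.35, adjusted p = 0.0238) or coculture replicate B (log2 0.35, adjusted p = 0.00582), and with no filter on low counts (adjusted p = 0.000511). Bnip3l, a relative of Bnip3, averaged 78.7 ± 10.9 CPM in coculture and 73.0 ± 8.68 CPM alone and passed only without alone replicate C (log2 0.21, adjusted p = 0.0465). Among cocultured libraries, replicate C was the highest in 11 of the 17 HIF-related members (33.8% of all genes tested). Among lone ones it was the highest in 12 of 17, for which the share over all genes was not worked out.

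The remaining members were not called. Pdk1, the kinase that shuts pyruvate dehydrogenase, was at 87.5, 83.7 and 99.6 CPM in coculture and 89.8, 84.0 and 89.1 CPM alone (log2 0.04, SE 0.0595, adjusted p = 0.606), so that only replicate C exceeded the lone range. Mxi1, an antagonist of MYC, was at 62.4 ± 1.81 CPM in coculture and 60.01 ± 0.850 CPM alone. Ankrd37, an ankyrin repeat gene, was low, with 22, 47 and 72 counts in coculture and 59, 66 and 47 alone (log2 -0.26, adjusted p = 0.505). Ankrd37 overlaps Ufsp2 on the other strand, which was at 79.96 CPM in coculture and 87.0 CPM alone. Pfkp with Pitrm1, Pfkm with Senp1, Tpi1 with Spsb2 and Gapdh with Iffo1 overlap in the same way, and Pkm overlaps AC160637.1, at 116 CPM in coculture and 120 CPM alone, on its own strand. How reads in these overlaps were assigned is not given, so values of these genes are uncertain there.

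Of 24 other HIF targets that could be tested, among 27 listed, 13 rose and 1 fell (54.2% and 4.17%), against 21.7% and 15.2% of all genes tested. These 13 include Vldlr, Cxcr4 and Rora, which were tested only because of their cocultured libraries. Cxcr4 and Rora averaged 0.314 and 0.457 CPM alone and 1.75 and 1.49 CPM in coculture. Of the 16 with at least 10 CPM alone 8 rose (50%), against 16.5% of all genes at that level, and their median log2 difference was 0.14, against -0.03. Vegfa, the vascular growth factor, was at 51.0, 49.6 and 63.9 CPM in coculture and 32.8, 34.4 and 39.0 CPM alone, 1.55-fold higher (adjusted p = 1.72e-06). Ddit4, an inhibitor of mTORC1, rose 3.04-fold, at 24.1 ± 0.987 CPM in coculture and 7.88 ± 2.48 CPM alone (adjusted p = 1.11e-09). Vldlr, a lipoprotein receptor, was at 20.9 ± 1.94 CPM in coculture and had no count alone, at least 341-fold higher with 3 counts over the lone group as the floor.

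Of 9 tested regulators of HIF, 2 rose and the other 7 were not called, a share (22.2%) near that of all genes tested (21.7%). Vhl, the ubiquitin ligase subunit that recognises hydroxylated HIF, was at 25.5 ± 2.38 CPM in coculture and 18.4 ± 0.767 CPM alone, 1.39-fold higher (adjusted p = 0.000292). Hif1an, an asparagine hydroxylase that blocks HIF activity, was at 53.9 ± 3.31 CPM in coculture and 44.6 ± 1.17 CPM alone, 1.21-fold higher (adjusted p = 0.00183). Arnt2 and Hif3a were too low to test.

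Of 9 tested glycogen genes 6 rose and 1 fell (66.7% and 11.1%), against 21.7% and 15.2% of all genes tested. Without Stbd1, which was tested only because of its cocultured libraries, 8 genes were left, all with at least 10 CPM alone. Of these 5 rose (62.5%), against 16.5% of all genes at that level. Gbe1, the glycogen branching enzyme, rose 1.52-fold to 41.3 ± 1.28 CPM in coculture, against 27.1 ± 1.13 CPM alone, Ugp2, which makes the glucose donor, 1.27-fold to 86.8 ± 2.45 CPM, against 68.1 ± 2.41 CPM alone, and Pgm2, a phosphoglucomutase, 1.26-fold to 78.3 ± 10.8 CPM, against 62.2 ± 2.32 CPM alone. Stbd1, a glycogen-binding protein, had 337 counts in coculture and 1 alone, which is 349 times as much (exact 95% interval 62.1 to 13810, from counting error alone).

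Of 10 pentose phosphate genes 2 rose (20%) and 3 fell (30%), against 21.7% and 15.2% of all genes tested. The share that rose was near that of all genes, and of the 8 with at least 10 CPM alone 3 fell (37.5%), against 21.1% of all genes at that level. The genes that fell encode enzymes of the cytosolic oxidative branch, the part of the pathway that yields NADPH. G6pdx, the first enzyme, fell 1.15-fold to 336 ± 10.4 CPM in coculture, against 386 ± 9.48 CPM alone, and Pgls, the second, fell 1.23-fold to 72.6 ± 2.17 CPM, against 89.6 ± 6.01 CPM alone. Pgd, the third, fell 1.09-fold to 560.1 ± 15.0 CPM in coculture, against 609 ± 18.5 CPM alone (adjusted p = 0.0158). H6pd, which catalyses the first steps in the endoplasmic reticulum, rose 1.43-fold, at 53.2 ± 3.54 CPM in coculture and 37.2 ± 0.954 CPM alone, and Rpe, an epimerase of the non-oxidative branch, rose 1.19-fold.

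Of 12 tested genes of pyruvate entry into mitochondria, 2 fell and the other 10 were not called, a share (16.7%) near that of all genes tested that fell (15.2%). Pdhb, a subunit of pyruvate dehydrogenase, fell 1.27-fold to 120.2 ± 4.06 CPM in coculture, against 153 ± 3.91 CPM alone (adjusted p = 1.39e-06), and Dld, the dihydrolipoamide dehydrogenase that this complex shares with others, fell 1.16-fold to 195 ± 3.43 CPM in coculture, against 226 ± 5.22 CPM alone. Of 15 other glycolytic isoforms and transporters that could be tested, 1 rose (6.67%) and the other 14 were not called. The shares over all genes tested were 21.7% higher and 15.2% lower. Among the 12 of these isoforms and transporters that averaged 10 CPM or more in lone cells, none was called. At that level 16.5% of all genes were called higher and 21.1% lower. The share of rises was 50% among the 20 glycolytic rows. Both lists were chosen with earlier results of these data known, so this contrast cannot show how far the rise extends. The gene that rose, named here after its values were seen, was Ldhb, the other lactate dehydrogenase subunit. It had 98 counts in coculture and 0 alone, at least 33.8-fold higher. Ldhb too cleared the filter only by its cocultured libraries. Ldhb, Stbd1 and Vldlr, like Egln3, were at or near 0 in lone cells and changed between the groups with the epithelial marker sum, whose part in their rises was not tested.

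**Figure D4:**
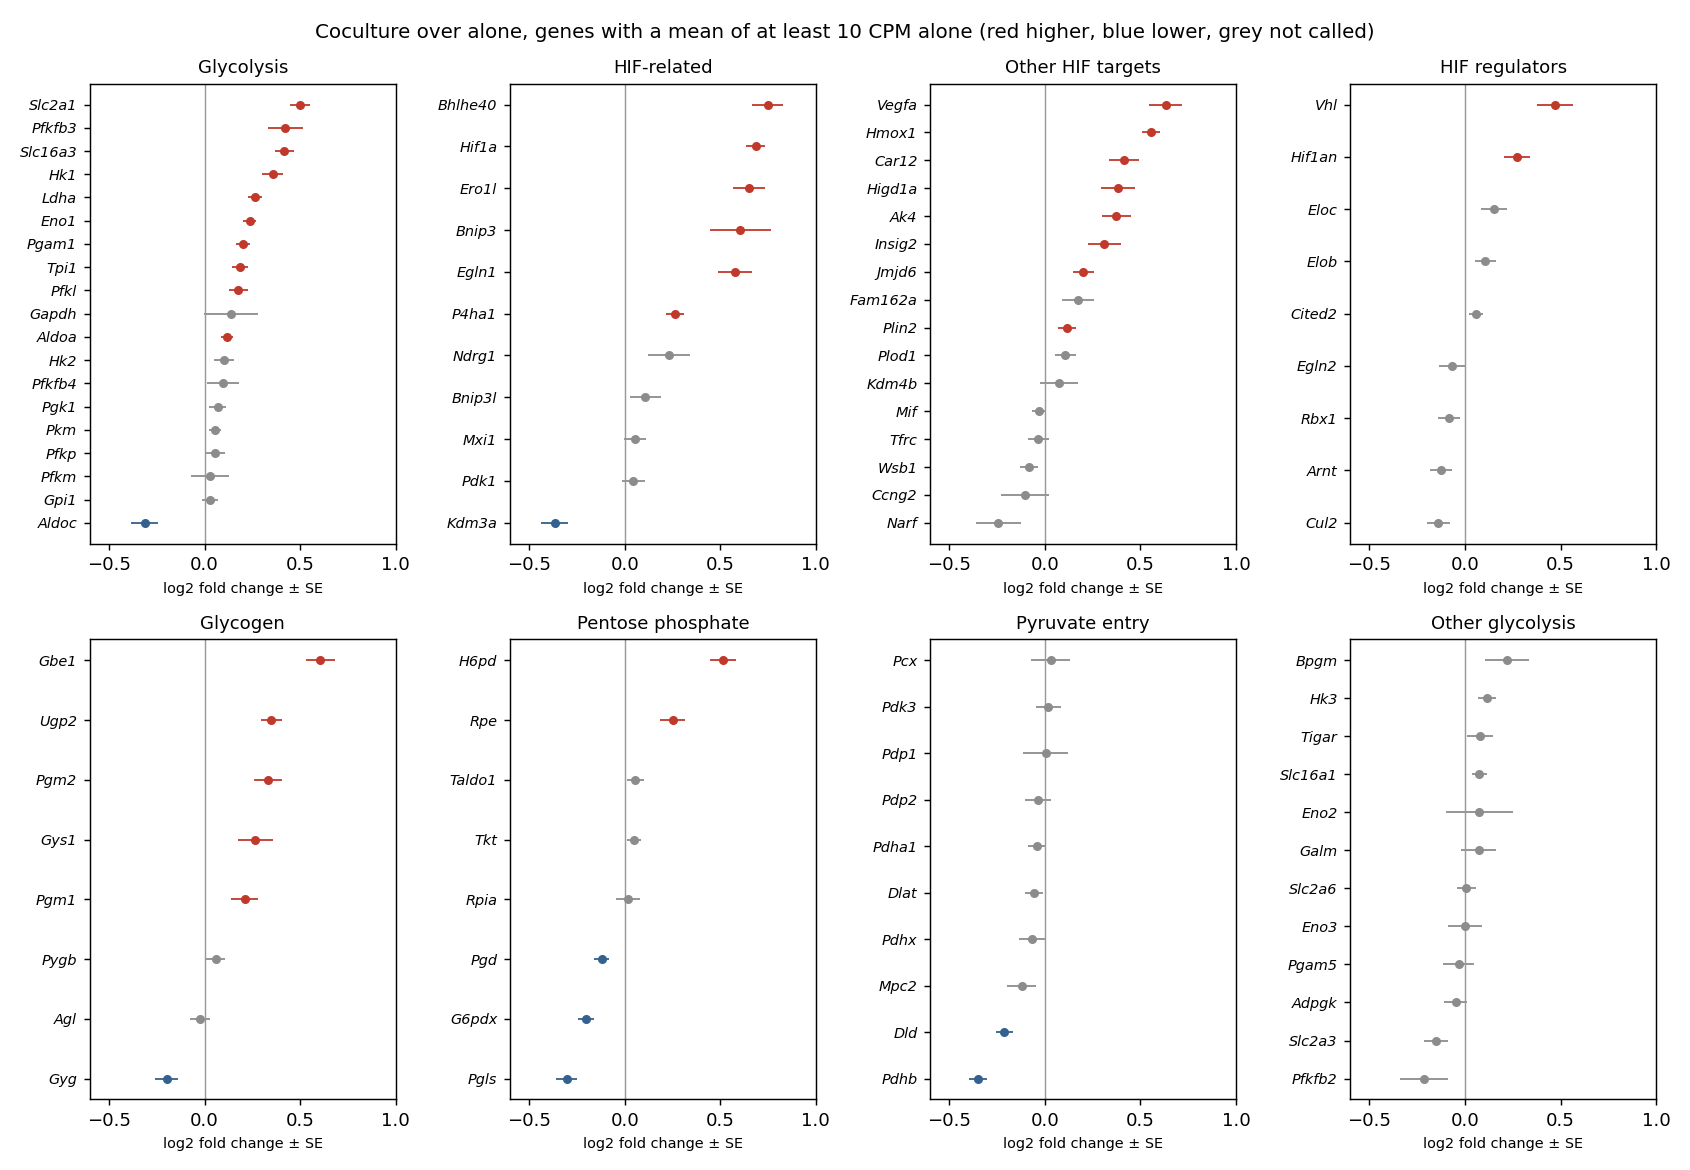
Log2 fold change of coculture over alone with its SE from the edgeR fit, for members and for further pathway genes with a mean of at least 10 CPM in lone cells. Red points were called higher, blue points lower and grey points neither, and low genes such as Egln3, Adm and Ldhb are not drawn. Slc2a1, Pfkfb3 and Slc16a3 lead the glycolytic genes, Pdhb and Dld are the blue points of pyruvate entry, and Pgls, G6pdx and Pgd those of the pentose phosphate pathway.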

How the data were processed

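RNA was selected with poly-T beads, made into libraries with random hexamers and read in pairs on a NovaSeq X Plus, per the labels' protocols. Tools named in the submitters' processing notes are featureCounts 1.5.0-p3 and HISAT2 2.0.5, edgeR 3.22.5 and DESeq2 1.20.0, with mm10 as the build; their roles and the strand setting of the counting are not stated there. The authors deposited raw counts per gene and FPKM values of the same 6 libraries. Deposited FPKM matched counts scaled by length and by library total to within a factor of 0.996 to 1.00.

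Counts were tested with the edgeR 4.0.16 quasi-likelihood test in R 4.3.3 (filterByExpr, TMM scaling, 1 group term), with Benjamini-Hochberg adjustment over 12972 genes and a threshold of 0.05. CPM use TMM-scaled library sizes, and SE is the size of the log2 fold change divided by the root of its F value. FPKM served to compare levels between genes. Replicates were distinct: within groups, chi-square over degrees of freedom was 2.98 to 4.58. A group at 0 counts was set to 3 counts in all for bounds, and genes with 1 to 3 counts alone have an exact conditional 95% interval, both for counting error alone. Pgam1, Ldha, Bnip3l and Gapdh have annotated pseudogene rows with counts, 1170, 857, 576 and 24 over all libraries, so their reads may be split.

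All members are named; library values are given for Hk2, Epas1, Pdk1 and the 6 genes of each group with the smallest adjusted p, and for others where overlap matters. From the other lists, up to 4 called genes with the largest change are named, if the higher group averaged at least 5 CPM. Pgd, Cxcr4 and Rora were added after their values were seen. A further gene that this rule names is not reported here. The members and lists were chosen with earlier results of these data known. Promoters came from RefSeq (GRCm38.p6, the assembly of mm10). Alternatives were DESeq2 1.42.0, other scalings and filters, limma 3.58.1 on FPKM with pseudocounts of 1 and 0.1, each library left out, a replicate block and, chosen after seeing the data, both replicate C libraries left out.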

Additional observations from a re-analysis of the deposited data

How the results depend on the processing

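Under all alternatives run, 1 glycolytic and 1 HIF-related member were called lower. Those called higher numbered 9 to 12 glycolytic and 8 to 12 HIF-related members, against 10 and 10 as reported. The 8 came from the filter on a lone mean of at least 1 CPM, which left Egln3 and P4ha2 untested. Calls of higher over all genes ran from 1756 of 10745 genes (FPKM fit, mean of at least 1 FPKM) to 3169 of 23676 (no filter). Of 700 values of single members under the alternatives, 666 kept their direction and side of the threshold, 8 passed it newly, 11 no longer passed and 15 changed sign. Calls were lost for Bnip3 (also in the 3 FPKM fits, adjusted p of 0.112 to 0.120), Pfkl (FPKM fits, 0.0637 to 0.0648, and without both replicate C libraries, log2 0.12, 0.0930) and Car9. The sign changes were in members without a call. Leaving out 1 library at a time gave log2 differences of -0.0213 to 0.0537 for Gpi1, -0.0259 to 0.101 for Pfkp, -0.000692 to 0.101 for Pgk1, -0.0277 to 0.0932 for Pdk1 and -0.00833 to 0.211 for Bnip3l, each lowest without coculture replicate C. The ranges were -0.0517 (without alone replicate B) to 0.131 for Pfkm, -0.0270 (without alone replicate C) to 0.450 for Gapdh and -0.628 to 0.0253 (without coculture replicate A) for Ankrd37. The value of Pfkm without coculture replicate C was -0.0404. Without both replicate C libraries the values were -0.0286 for Gpi1, -0.00690 for Pfkp, -0.0650 for Pfkm, -0.163 for Gapdh, -0.00179 for Pgk1 and -0.0209 for Pdk1. Apart from the fewer samples, the cause was not tested. Same-letter libraries did not deviate together for letters A, B and C over 12972 genes (correlations of 0.0014, 0.020 and 0.035). Over the 37 member rows the correlations were -0.31, -0.0903 and -0.206. Such correlations cannot show whether the libraries were paired by design. With the replicate block, 10 glycolytic members rose and 1 fell, 11 HIF-related members rose and 1 fell, and the added call was Ndrg1 (log2 0.22, adjusted p = 0.00597). Over all genes the block gave 2815 higher and 1951 lower calls, against 2819 and 1974 without it. Epas1 and Ankrd37 rest on 83 to 172 counts a group, which limits their precision.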
